A study of Homo sapiens with 6 samples.

Results

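Complement components and regulators were examined as 9 listed genes, C3, C1R, C1S, CFB, CFI, CD46, CD55, CD59 and SERPING1. They were taken by gene symbol from a table of 61731 genes and loci, in which all 9 were present. The study asked what the M3 muscarinic acetylcholine receptor (CHRM3) does in glioblastoma, and sequenced RNA of U87-MG cells, an established human glioblastoma line, with and without knockdown of that receptor. There were 3 libraries with the genotype label Normal control (NC) and 3 with the label CHRM Knockdown (KD), all of U87 cells, and the labels give no treatment or time. According to the paper the knockdown was delivered by lentivirus. Its text lists several knockdown sequences without saying which of them these cells carried, and does not describe the vector of the NC cells. The numbers 1 to 3 of the KD libraries were taken as replicates, and whether they stand for different knockdown sequences is not stated. A single cell line was sequenced. Whether the replicates were grown as separate cultures is stated neither in the labels nor in the paper, so p-values here measure only the spread between these libraries.

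The deposited values are TPM, a length-corrected share of each library's transcripts. The read depth cannot be recovered from them and is unknown. A value above 0 was listed for 22597 genes in the library with the fewest and 23311 in that with the most. CHRM3 (ENSG00000133019, chromosome 1, 239386565 to 239915452) stood at 0.02, 0.09 and 0.13 TPM in NC replicates 1 to 3 and at 0.13, 0.01 and 0.02 TPM in KD replicates 1 to 3. The groups overlapped (exact two-sided permutation p = 0.80, with 0.10 the smallest that 3 libraries against 3 allow), and a reduction of CHRM3 was not detectable. The groups are taken from the labels, and directions are given for the KD libraries relative to NC. Of 8 markers of glioma and mesenchymal glioblastoma cells, 5 reached a mean of 1 TPM. The intermediate filament gene VIM was the most abundant of them at 6574 ± 77.2 TPM in NC (SD, n = 3), and the hyaluronan receptor gene CD44 was at 597.3 ± 21.6 TPM. The astrocyte marker GFAP was only at 1.16 ± 0.219 TPM in NC, and S100B, SOX2 and OLIG2 stayed under 1 TPM in every library.

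Complement is a cascade of plasma and tissue proteins that marks surfaces for removal and can open pores in membranes. Its classical route starts with recognition of a target by C1q and the proteases C1r and C1s, all routes meet at the cleavage of C3 by convertase enzymes, and the terminal proteins then assemble the pore. Soluble and membrane-bound regulators stop these steps on the body's own cells, the liver makes most plasma complement, and astrocytes, microglia and glioma lines also express several of its genes.

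Promoter sequences are shown for 3 members with different results, the initiating protease gene C1R, which fell, the regulator gene CFI, which rose, and the convertase gene CFB, which passed no threshold. Of the 9 members, 6 were in the RefSeq promoter table (GRCh38.p14), with 11 promoters, and C3, C1S and SERPING1 were not. Each sequence runs 5′ to 3′ on the strand of the gene, from 250 bases before its RefSeq start to 50 bases after it, and capitals mark motif matches. The C1R promoter is chr12:7092396-7092695 on the minus strand, that of CFI is chr4:109801950-109802249 on the minus strand, and that of CFB is chr6:31945845-31946144 on the plus strand. By the GENCODE gene spans given with each member, the first 2 windows cross the start of their gene and that of CFB lies within the gene.
C1R: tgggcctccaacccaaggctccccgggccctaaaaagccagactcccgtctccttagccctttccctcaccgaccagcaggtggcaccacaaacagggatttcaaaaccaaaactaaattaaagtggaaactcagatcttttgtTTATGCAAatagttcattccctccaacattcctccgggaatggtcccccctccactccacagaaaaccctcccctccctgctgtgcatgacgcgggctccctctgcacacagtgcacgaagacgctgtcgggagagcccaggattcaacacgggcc
CFI: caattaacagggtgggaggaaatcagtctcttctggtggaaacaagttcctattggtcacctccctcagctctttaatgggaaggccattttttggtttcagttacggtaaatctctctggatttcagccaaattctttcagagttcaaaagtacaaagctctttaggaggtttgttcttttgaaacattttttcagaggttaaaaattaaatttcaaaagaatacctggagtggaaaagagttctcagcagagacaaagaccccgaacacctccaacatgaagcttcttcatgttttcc
CFB: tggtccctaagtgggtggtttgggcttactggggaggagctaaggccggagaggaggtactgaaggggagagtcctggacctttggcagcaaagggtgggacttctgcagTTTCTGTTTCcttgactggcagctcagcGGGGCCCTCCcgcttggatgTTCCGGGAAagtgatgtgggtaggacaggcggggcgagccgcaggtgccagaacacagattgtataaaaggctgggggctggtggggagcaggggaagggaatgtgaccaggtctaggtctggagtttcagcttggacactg
On both strands, 5 motifs were searched: AP-1 (TGANTCA), C/EBP (TTGCNNAA), GAS (TTCNNNGAA), ISRE (GAAA, any 2 bases, then GAAA) and the NF-kB motif, given by its name alone. Among 35116 promoters of the same length, 7.71% held the AP-1 letters, 10.5% C/EBP, 7.66% GAS, 3.57% ISRE and 11.3% NF-kB. The C1R sequence had a C/EBP match that starts 106 bases before its RefSeq start. The CFB sequence had an ISRE match starting 140 bases, an NF-kB match 112 bases and a GAS match 92 bases before its RefSeq start. These matches did not overlap, and the CFI sequence had no match. Distances from the start of the GENCODE span would differ. The further C1R promoter in the table had C/EBP and GAS matches, the 4 of CD59 had GAS, C/EBP or AP-1 matches, and those of CD46 and CD55 had none. CD59 promoters 1 and 2 overlap, and their GAS match is the same site. CD59 promoters 3 and 4 overlap as well, as do those of CD46. A match describes letters in a window and is not a measured binding site.

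Differences were tested with limma on log2(TPM + 1) for 13722 genes, those whose TPM averaged 1 or more across the libraries, and a gene was called at an adjusted p under 0.05. The scale understates the change of low genes. Of the 9 members, 8 were tested, all with both group means at or above 1 TPM, and SERPING1 was under the limit. C3, C1R, C1S, CD46 and CD59 fell in the KD libraries, CFI rose, and CFB and CD55 were not past the threshold. The 5 lower calls among the 8 stand against 24.0% of all tested genes called lower, and the 1 higher call against 12.1% called higher. When the log2 fold change also had to reach 1 in size, C3 was called lower, against 1.20% of tested genes, and CFI higher, against 0.670%. The values of the groups did not overlap for 6 of the 8 tested members, against 50.2% of all tested genes. The members tested had a median log2 fold change of -0.22, and all tested genes one of -0.06. Of all calls, 3295 were lower and 1660 higher, a split that moved to 2230 lower and 2310 higher with median-of-ratios scaling and to 2229 lower and 2233 higher with quantile normalization, while 5 members were called lower and 1 higher under both.

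**Figure D1:**
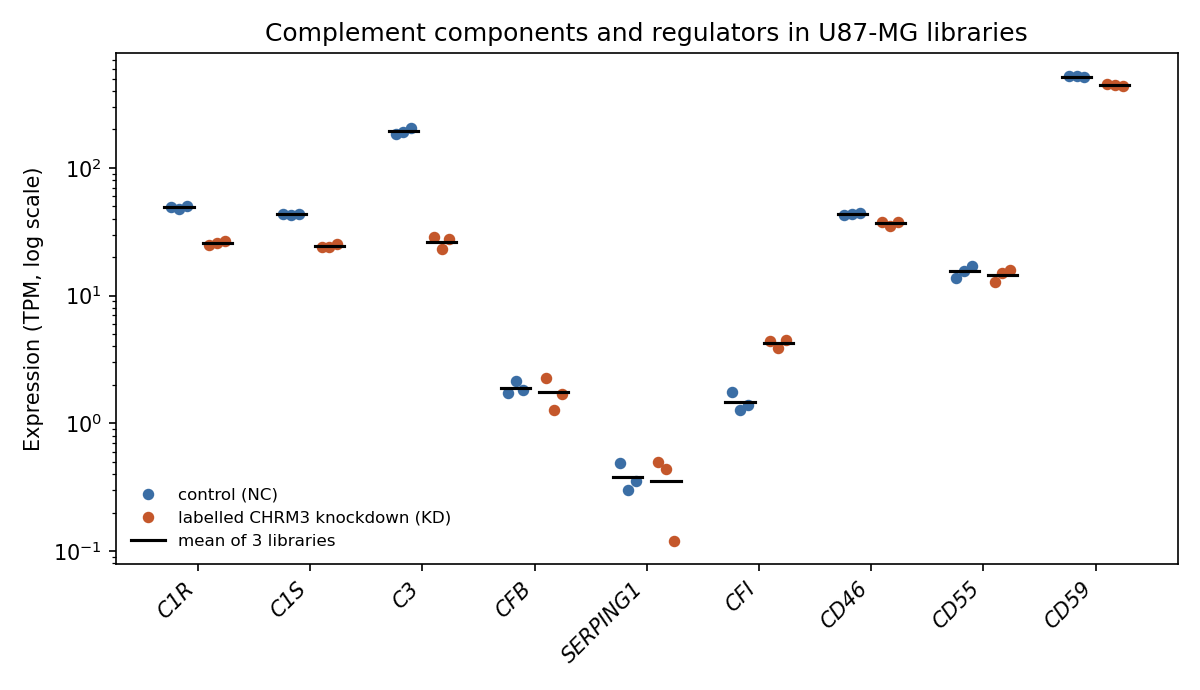
Level of each member in every library, in TPM on a log scale, with 3 points for NC, 3 for the libraries labelled CHRM Knockdown (KD) and a line at each mean. C3 lies between 183.03 and 204.81 TPM in NC and between 23.0 and 28.52 TPM in KD, CFI lies higher in KD, and the points of CFB, CD55 and SERPING1 overlap.

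Of the initiating proteases, C1R (ENSG00000159403, GRCh38 chromosome 12, 7080199 to 7092607) encodes the protease that activates itself and then C1s within the first complex. It was at 49.83, 48.01 and 49.91 TPM in NC and at 24.99, 25.9 and 26.91 TPM in KD. Every KD library was below every NC library, and the KD mean was 52.7% of the NC mean. The log2 fold change was -0.90 (SE 0.0388, limma adjusted p = 2.22e-05). C1S (ENSG00000182326, chromosome 12, 6988259 to 7071032) encodes the protease that cleaves C4 and C2 and lies beside C1R on the opposite strand. Its TPM was 43.84, 42.82 and 43.82 in NC and 24.17, 23.85 and 25.3 in KD, again with no overlap. C1S fell to 56.2% of the NC mean, or by 0.81 on the log2 scale (SE 0.0355, limma adjusted p = 2.43e-05). The proteases thus fell by similar amounts. The ratio of C1R to C1S in TPM was 1.14, 1.12 and 1.14 in NC and 1.03, 1.09 and 1.06 in KD (exact permutation p = 0.10, the smallest possible). In bulk RNA, fewer cells expressing a gene and less of its RNA per cell cannot be told apart, and this holds for every member. The strand used in counting is not stated, and the C1R gene shares 3021 bases with C1RL, which encodes a related protease and was not past the threshold at 8.593 ± 0.837 TPM in NC and 9.367 ± 1.72 TPM in KD (SD, n = 3 each, limma adjusted p = 0.583). C1S overlaps EMG1 and LPCAT3, which had limma adjusted p of 0.87 and 0.41 and log2 fold changes of -0.01 and 0.05.

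Among the convertase parts, C3 (ENSG00000125730, chromosome 19, 6677704 to 6730562) encodes the protein whose cleavage is the shared step of all routes. It was at 183.03, 190.5 and 204.81 TPM in NC replicates 1 to 3 and at 28.52, 23.0 and 27.6 TPM in KD replicates 1 to 3. The lowest NC library was far above the highest KD library. The mean fell from 192.8 ± 11.1 to 26.37 ± 2.96 TPM (SD, n = 3 each), which is 13.7% of the NC level or 7.31-fold lower. The log2 fold change was -2.83 (95% confidence interval -3.03 to -2.62, limma adjusted p = 5.61e-06), and by this value C3 was number 13 among the 13722 tested genes, counted from the strongest fall. By mean level C3 ranked 781 of 61731 in NC and 4346 in KD. C3 shares 649 bases with GPR108 on the same strand, a gene of a membrane protein family. GPR108 was at 58.27, 54.54 and 60.39 TPM in NC and at 40.04, 37.07 and 38.03 TPM in KD, a log2 fold change equal to -0.58 (limma adjusted p = 3.07e-04), and its part in the C3 values was not tested.

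CFB (ENSG00000243649, chromosome 6, 31945650 to 31952084) encodes factor B, the source of the protease in the alternative convertase. CFB was low, at 1.74, 2.15 and 1.81 TPM in NC and 2.28, 1.28 and 1.7 TPM in KD. KD replicate 1 was the highest of the 6 libraries and KD replicate 2 the lowest, so the groups overlapped. The log2 fold change of -0.09 had a 95% confidence interval of -0.48 to 0.30 (limma adjusted p = 0.709), and it was 0.04 without KD replicate 2. A readthrough gene, AL645922.1, shares 6399 bases with CFB, and with its TPM added the value was -0.06 (limma adjusted p = 0.79). The fall of C3 was therefore not matched by a detected change of CFB, although no test compared the genes with each other.

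Of the soluble regulators, CFI rose and SERPING1 was under the limit for testing. CFI (ENSG00000205403, chromosome 4, 109740694 to 109802179) encodes factor I, the plasma protease that cuts C3b and C4b once a cofactor holds them. It was at 1.76, 1.28 and 1.38 TPM in NC and at 4.38, 3.86 and 4.51 TPM in KD. All KD libraries were above all NC libraries, and the KD mean was 2.88-fold the NC mean at a low level in both groups. The log2 fold change was 1.09 (SE 0.114, limma adjusted p = 7e-04), which placed CFI at number 151 counted from the strongest rise. A readthrough gene, AC126283.2, shares 61306 bases with CFI. With its TPM added, an alternative chosen after seeing the data, the sums were 1.76, 1.67 and 1.42 TPM in NC and 4.69, 5.29 and 4.51 TPM in KD, and the log2 fold change was 1.16 (limma adjusted p = 3.35e-04). SERPING1 (ENSG00000149131, chromosome 11, 57597387 to 57614853) encodes the C1 inhibitor, which blocks C1r and C1s. SERPING1 was at 0.49, 0.3 and 0.35 TPM in NC and at 0.5, 0.44 and 0.12 TPM in KD. KD replicates held both the highest and the lowest value (exact permutation p = 0.90), and at this level a difference was not detectable. In a limma fit with no limit on low values its log2 fold change was -0.04 (adjusted p = 0.898, and 0.888 with a limit of 0.1 TPM).

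The membrane regulators included the most abundant member, and their log2 fold changes lay between -0.23 and -0.08. CD59 (ENSG00000085063, chromosome 11, 33703010 to 33736491) encodes the anchored protein that blocks the terminal pore, and had the highest level of the 9 members. Its TPM was 519.75, 522.14 and 515.92 in NC and 453.18, 445.27 and 441.24 in KD, with no overlap. CD59 fell to 86% of the NC mean, or by 0.22 on the log2 scale (SE 0.0168, limma adjusted p = 2.15e-04). This placed it at number 3533 of the 13722 tested genes, counted from the strongest fall. With median-of-ratios scaling the CD59 log2 fold change was -0.15 (limma adjusted p = 0.00134). CD46 (ENSG00000117335, chromosome 1, 207752057 to 207795513), the membrane cofactor with which factor I cleaves C3b, was at 43.0, 43.56 and 44.08 TPM in NC and at 37.87, 35.32 and 37.81 TPM in KD. It fell to 85% of the NC mean, again without overlap, with a log2 fold change of -0.23 (SE 0.0376, limma adjusted p = 0.00434). By this value CD46 was number 3331 from the strongest fall. With quantile normalization the CD46 value was -0.14 (limma adjusted p = 0.0389, the highest over 16 alternatives, the lowest being 0.00291). CD55 (ENSG00000196352, chromosome 1, 207321376 to 207386804) encodes the decay-accelerating factor, which takes convertases apart. CD55 was at 13.85, 15.47 and 17 TPM in NC and 12.87, 15.03 and 15.9 TPM in KD. The groups overlapped, and the log2 fold change of -0.08 had a 95% confidence interval of -0.32 to 0.16 (limma adjusted p = 0.591). Its sign turned with quantile normalization (0.004) and without KD replicate 1 (0.006). A readthrough gene, AL049629.2, shares 19458 bases with CD59, and with its TPM added the CD59 log2 fold change was -0.23 (limma adjusted p = 1.54e-04).

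**Figure D2:**
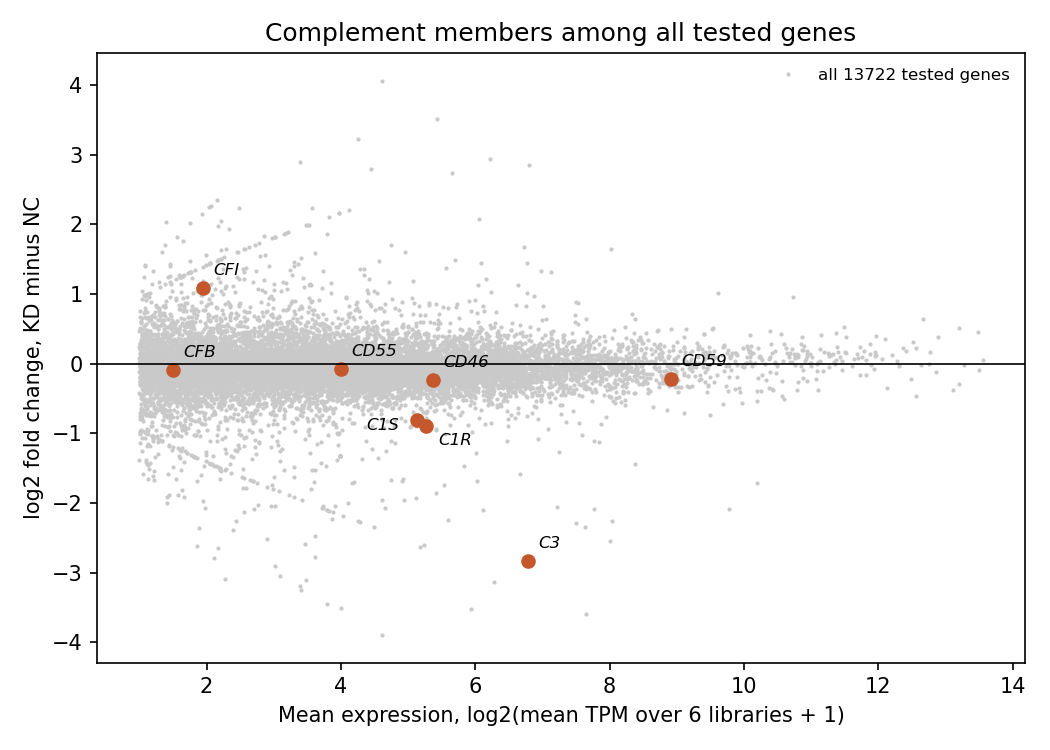
Log2 fold change (KD minus NC, on log2(TPM + 1)) against mean level for all 13722 tested genes (grey points), with the 8 tested members in orange. C3 at -2.83 lies below most grey points at its level, CFI at 1.09 lies above 0 among low genes, and CD59 at -0.22 is the most abundant member.

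TPM corrects for length, so levels can be set side by side between genes. In NC the order by mean TPM was CD59, C3, C1R, CD46, C1S, CD55, CFB, CFI and SERPING1, where CD46 and C1S (43.55 ± 0.54 and 43.49 ± 0.583 TPM) did not differ beyond their spread, and the values of CFB and CFI overlapped. In KD the order was CD59, CD46, C3, C1R, C1S, CD55, CFI, CFB and SERPING1, and C3, C1R and C1S (26.37 ± 2.96, 25.93 ± 0.96 and 24.44 ± 0.762 TPM, SD, n = 3 each) overlapped. C3 thus went from well above the proteases to their level. The ratio of C3 to C1R in TPM was 3.67, 3.97 and 4.1 in NC and 1.14, 0.888 and 1.03 in KD. The ratio of CD59 to C3 was 2.84, 2.74 and 2.52 in NC and 15.9, 19.4 and 16 in KD. CFI stood at 0.962%, 0.672% and 0.674% of the C3 level in NC and at 15.4%, 16.8% and 16.3% in KD. For each of these ratios the exact permutation p was 0.10, the smallest that the design allows. The TPM of the 9 members summed to 857.3, 866.2 and 879.1 in NC and to 588.8, 574 and 581.1 in KD.

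The tested genes whose values over the 6 libraries were most like those of C3, by Pearson's r of log2(TPM + 1), were SERINC1 (0.9998), PROCR (0.9996), ODAPH (0.9995), GK (0.9994) and CLDN14 (0.9993). The libraries fall into 2 groups that differ in C3, so r mostly repeats the group difference and is given as a description. The sizes differed widely, since CLDN14 had a log2 fold change of -2.23, near that of C3, and SERINC1 one of -0.21.

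The wider pathway was read from a list of 49 further complement genes, of which 7 reached the limit for testing and 14 were listed at 0 TPM in all 6 libraries. By role, 0 of 9 recognition genes were tested, their highest value in any library was 0.14 TPM, and the C1q chain genes C1QA, C1QB and C1QC were listed at 0 throughout. Of 7 terminal pathway genes only C5 was tested, at 1.137 ± 0.0808 TPM in NC and 1.19 ± 0.139 TPM in KD (SD, n = 3 each, limma adjusted p = 0.861). Transcripts of C1R, C1S and C3 were thus measured in libraries where those of the C1q chains were listed at 0. Of the 7 tested genes, 2 were called lower, 1 higher and 4 were not past the threshold, against 24.0% of all tested genes called lower and 12.1% called higher. These counts were near those shares, and the median log2 fold change of the 7 was 0.10.

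CLU, which encodes clusterin, a soluble protein that binds terminal complexes before they insert, was at 337.95, 348.32 and 374.41 TPM in NC and at 252.24, 248.08 and 233.94 TPM in KD. Clusterin transcripts fell without overlap, with a log2 fold change of -0.53 (SE 0.0458, limma adjusted p = 3.35e-04). ITGAX, a chain of an integrin receptor for cleaved C3, was at 2.573 ± 0.251 TPM in NC and 1.78 ± 0.13 TPM in KD (log2 fold change -0.36, limma adjusted p = 0.0376). This call was lost in each of the 6 fits that left out NC replicate 1, 2 or 3 or KD replicate 1, 2 or 3, with adjusted p between 0.0625 and 0.111. C1QBP, which encodes a mitochondrial protein that also binds C1q, rose from 237.4 ± 4.19 to 262.7 ± 4.53 TPM (log2 fold change 0.15, limma adjusted p = 0.00356), and its log2 fold change was 0.23 with quantile normalization. The C3a receptor gene C3AR1 was at 0.783 ± 0.0473 TPM in NC and 1.357 ± 0.205 TPM in KD (SD, n = 3 each), so that it was tested only through its KD values. Its log2 fold change was 0.40 (limma adjusted p = 0.0615, 0.0493 with median-of-ratios scaling, 0.0414 with quantile normalization and 0.0626 to 0.144 with a library left out). C4A and C4B are near-identical copies whose reads can be split between them, and their summed TPM was 1.38, 1.33 and 1.31 in NC and 1.98, 1.66 and 1.12 in KD (exact permutation p = 0.40).

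**Figure D3:**
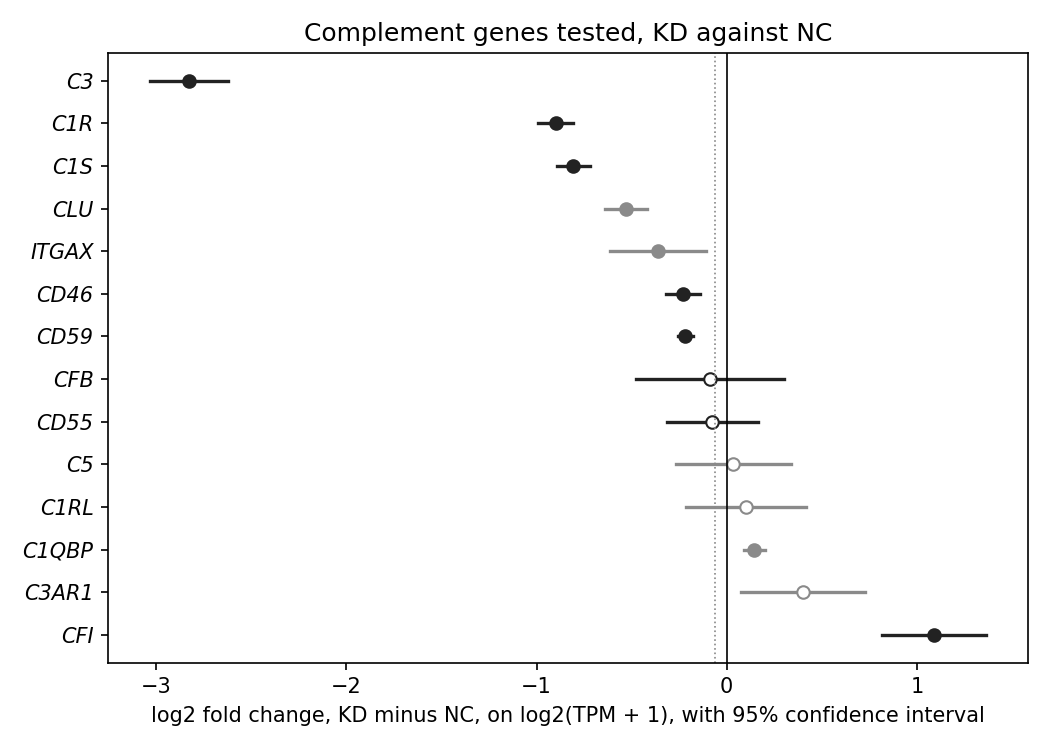
Log2 fold change (KD minus NC, on log2(TPM + 1)) of the 8 tested members (black) and 6 of the 7 tested genes of the wider list (grey), with 95% confidence intervals from limma. Filled points have an adjusted p under 0.05, the dotted line is the median of all tested genes (-0.06), and the values run from -2.83 for C3 to 1.09 for CFI.

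Complement genes are known to be induced by cytokines such as interleukin 1, interleukin 6 and the interferons. Of 17 such cytokines, receptors and transcription factors, 13 were tested, of which 6 were called lower, 2 higher (STAT3 and IL1R1) and 5 were not past the threshold, against 24.0% of all tested genes called lower and 12.1% called higher. The IL1R1 call (limma adjusted p = 0.0383) held without KD replicate 3 but was lost without any other library, where its adjusted p reached 0.109. The cytokine gene IL1B was at 136.24, 137.41 and 140.14 TPM in NC and at 14.29, 15.52 and 14.67 TPM in KD. IL1B fell to 10.7% of its NC mean (log2 fold change -3.13, limma adjusted p = 1.43e-07), a fall of the same order as that of C3. The interferon gamma receptor gene IFNGR1 was at 17.89, 18.23 and 15.56 TPM in NC and 9.08, 10.63 and 10.74 TPM in KD (log2 fold change -0.71, limma adjusted p = 0.00132). The interleukin gene IL6 fell from 24.34 ± 0.695 to 17.72 ± 0.575 TPM (SD, n = 3 each, log2 fold change -0.44, limma adjusted p = 5.44e-04). The transcription factor gene IRF1 was at 19.36, 19.94 and 30.71 TPM in NC and 22.93, 42.15 and 39.64 TPM in KD, which overlapped (log2 fold change 0.54, limma adjusted p = 0.166, and 0.0329 to 0.371 with a library left out, under 0.05 only without KD replicate 1). IFNG and IFNB1 were listed at 0 TPM in all libraries. The lower calls numbered 4 without NC replicate 2 and 4 with either other scaling. The higher calls numbered 1 without NC replicate 1, 2 or 3 or KD replicate 2, and with no limit on low values or one of 0.1 TPM. They also numbered 1 without mitochondrial transcripts. With a replicate block 5 were called lower and 1 higher, and the IL1R1 call was lost (limma adjusted p = 0.0942). Whether any of these genes bears on the complement values was not tested.

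**Figure D4:**
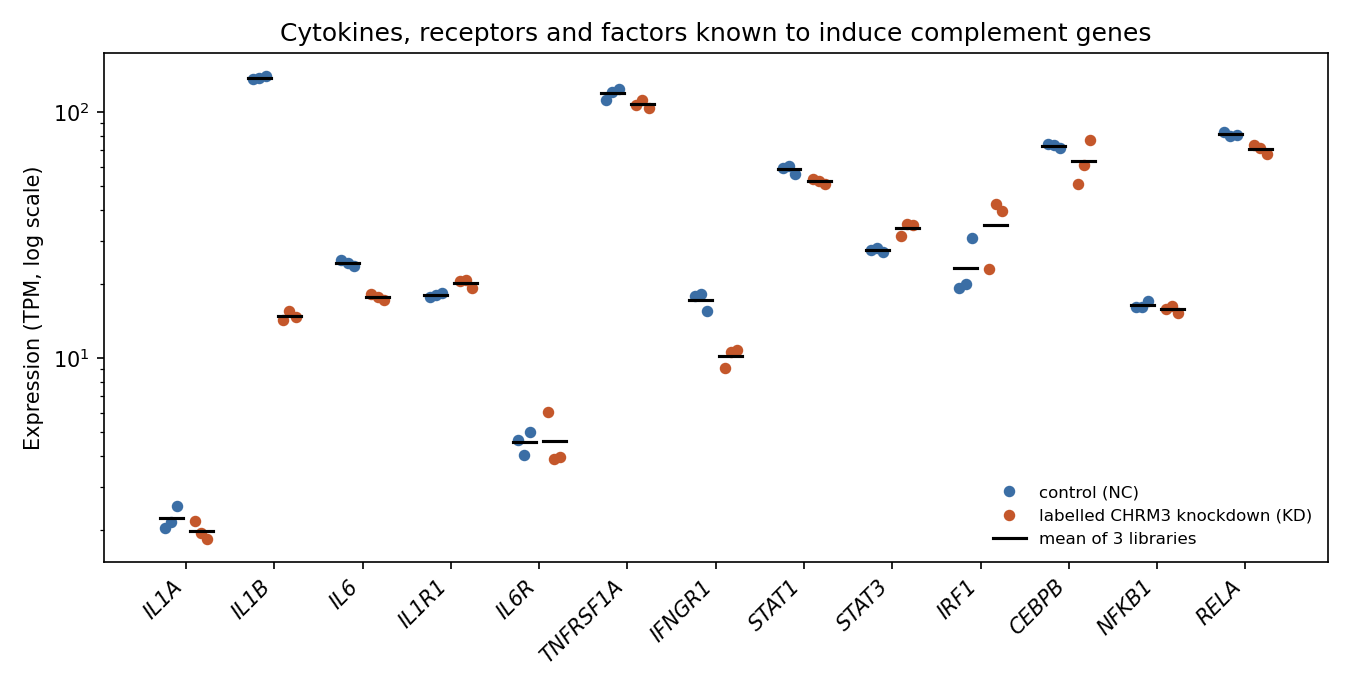
Level in TPM, on a log scale, of the 13 tested cytokine, receptor and transcription factor genes in every library, with 3 points for NC, 3 for the libraries labelled CHRM Knockdown (KD) and a line at each mean. IL1B lies between 136.24 and 140.14 TPM in NC and between 14.29 and 15.52 TPM in KD, and the points of IRF1 overlap.

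Of 17 acute-phase genes, many of which the liver raises together with C3, 2 were tested and both were called higher, against 12.1% of all tested genes, and 6 were listed at 0 TPM in all libraries. SERPINA1, which encodes the inhibitor of neutrophil elastase, rose from 1.643 ± 0.085 to 3.907 ± 0.31 TPM (SD, n = 3 each, log2 fold change 0.89, limma adjusted p = 7.32e-04). The pentraxin gene PTX3, whose product binds C1q, went from 14.08 ± 0.195 to 18.37 ± 2.55 TPM (log2 fold change 0.35, limma adjusted p = 0.0282). The PTX3 call was lost without NC replicate 1, 2 or 3 and without KD replicate 1, where its adjusted p reached 0.0782, and with no limit on low values (limma adjusted p = 0.0718). Neither gene moved in the direction of C3.

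Markers of other cells that make complement were mostly near 0. Of 10 leukocyte and microglia markers 1 was tested, CSF1R, the most abundant, which rose from 5.443 ± 0.168 to 9.167 ± 0.0351 TPM (SD, n = 3 each, log2 fold change 0.66, limma adjusted p = 2.59e-04). The list summed to 7.87, 7.01 and 7.53 TPM in NC and to 10.51, 10.64 and 9.81 TPM in KD, and TYROBP was listed at 0 in all 6 libraries. Without CSF1R, a sum chosen after seeing the data, the other 9 summed to 2.61, 1.53 and 1.94 TPM in NC and to 1.34, 1.44 and 0.68 TPM in KD (exact permutation p = 0.10, the smallest possible), and the KD mean was lower for 5 of them and higher for 3. None of the 8 hepatocyte markers was tested. They summed to 1.34, 0.78 and 1.06 TPM in NC and 1.34, 1.41 and 1.71 TPM in KD, with APOH the most abundant and APOA2 and TTR at 0 throughout. None of the 5 endothelial markers was tested either, their sums were 1.15, 0.66 and 0.54 TPM in NC and 0.19, 0.2 and 0.56 TPM in KD, TIE1 was the most abundant, and CLDN5 was at 0 throughout. Of the 5 tested glioma markers, CD44 fell to 473.5 ± 12.6 TPM in KD (limma adjusted p = 5.29e-04) and VIM, CHI3L1 and NES were higher, to 7376 ± 115, 43.92 ± 1.26 and 3.58 ± 0.396 TPM, while GFAP was not past the threshold, against 24.0% of all tested genes called lower and 12.1% called higher. The VIM call was lost with quantile normalization (limma adjusted p = 0.0615) and the NES call with no limit on low values (limma adjusted p = 0.0535). The part of these markers in the complement values was not tested.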

How the data were processed

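RNA of U87-MG cells was sequenced by the authors in 3 NC and 3 KD libraries. For extraction and library preparation the paper names TRIzol and TruSeq, the labels RNeasy and SMARTer. Values were deposited as TPM per gene and library, rounded to 2 decimals; the submitters' processing notes name fastp, RSEM and GRCh38.p13 without versions or order. Symbols were matched for 61369 of 61541 Ensembl identifiers, and coordinates came from GENCODE 29 (GRCh38). Columns were assigned by their names. Since TPM is not a count, log2(TPM + 1) was tested with limma 3.58.1 in R 4.3.3 (lmFit, eBayes with a mean-variance trend, two-sided, group as the only term) over the 13722 genes averaging 1 TPM or more, with Benjamini-Hochberg adjustment. A test on simulated data came first, and its outcome is not reported here. Every adjusted p comes from limma. Single values under the limit and ratios were compared by exact two-sided permutation tests. The members and lists were chosen with earlier results of these data known. By the rule for named genes, the text gives all members, every tested gene of the wider list except 1 that is not reported here, up to 4 genes each of the inducer and acute-phase lists by the size of the log2 fold change, CHRM3 and the 5 genes most like C3; genes that overlap a member, untested genes named for their level and single markers were named after their values were seen. Each of these choices was varied on its own: a pseudocount of 0.1 or 0.5, no filter or a mean of 0.1 or 5 TPM, median-of-ratios or quantile scaling, removal of mitochondrial transcripts, no trend, a replicate block, a fold change limit, and leaving out each library. Adding readthrough genes and the marker sum without CSF1R were chosen after seeing the data.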

Additional observations from a re-analysis of the deposited data

How the results depend on the processing

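C3, C1R, C1S, CD46 and CD59 were called lower, and CFI higher, in every alternative that tested them, with 1 exception. Under the limit on the fold change C3 and CFI were still called, and C1R, C1S, CD46 and CD59 were not. All tested genes called numbered 4955, and 256 when the log2 fold change also had to reach 1, where 1 member was lower in place of 5. Without one replicate the count ran from 3850 to 4210. With a limit of 5 TPM, 0 members were called higher, because CFI was no longer tested. Wider pathway genes called lower numbered 1 in place of 2 with no filter, a limit of 5 TPM, either other scaling, the replicate block and each replicate left out (1 to 1). Those called higher numbered 2 in place of 1 with a limit of 0.1 TPM, either other scaling and no trend. Under either other scaling the added higher call was C3AR1, which was tested only through its KD values. The lower call that was lost was ITGAX each time, while CLU stayed called. Its limma adjusted p was 0.061 with median-of-ratios scaling, 0.0698 with quantile normalization, 0.102 with the replicate block and 0.122 with no filter. With a limit of 5 TPM ITGAX was no longer tested. Apart from that limit, the cause of these moves was not tested. CFB reversed to 0.04 without KD replicate 2 (-0.222 to 0.04 across replicates left out), and CD55 to 0.004 with quantile normalization and 0.006 without KD replicate 1 (-0.147 to 0.006); the cause was not tested. Same-numbered libraries did not deviate together (correlations -0.0198, 0.0341 and 0.0334), so the numbers were not taken as pairs, and with a replicate block 4007 genes were called, with 5 members lower and 1 higher, and with 5 inducers lower and 1 higher (IL1R1 adjusted p = 0.0942). With a limit of 5 TPM, 1 acute-phase gene was called, because SERPINA1 was no longer tested. Other scalings moved the median log2 fold change of all tested genes from -0.06 to 0.004 and 0.002. Depth is unknown, so counting error and detection limits of low genes such as SERPING1, CFB and CFI cannot be given.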
